A study of Mus musculus with 6 samples.

Results

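The genes described here are follistatin and 9 genes that act with or beside it in activin and BMP signalling: Fst, Fstl3, Fstl1, Inhba, Inhbb, Bmp4, Acvr1, Acvr2a, Smad2 and Id1. Members were taken by name, as every probe whose gene name in the deposited table equals one of these symbols. This gave 8 probes for 8 of the 10 genes, out of 25697 probes on the array. No probe carries the name Fstl3 or Inhbb, so these genes are not analysed here. Fst was proposed because its signal was far lower in EPC_acLDL than in EPC in earlier results from the same arrays, and the other genes were added with those results known. The values of Fst are therefore given as a description with no p-value, and so are the values of every member between EPC_acLDL and EPC. Calls of members, Fst included, are counted only to set them beside the share of all probes called.

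Activins are dimers of inhibin beta subunits, and BMPs are related ligands of the TGF-beta family. Ligands of this family bring type II receptors, such as the product of Acvr2a, together with type I receptors, such as the product of Acvr1 (ALK2), and the receptors then phosphorylate Smad proteins that enter the nucleus. Follistatin is a secreted protein that binds activin tightly and some BMPs more weakly and keeps them from their receptors. In endothelial cells BMP signalling is known for the induction of Id genes and for roles in sprouting and vessel stability.

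RNA of 3 lines of mouse lung cells was hybridized to 6 arrays, 2 for each line. All lines came from athymic nude mice (female, per the methods), as cells sorted for a VEGF receptor and a stem cell marker and against CD45, and all were grown in mouse endothelial medium with serum. EPC is the primary line at passage 3 to 6. EPC_acLDL consists of EPC cells that had taken up fluorescent acetylated LDL and were sorted for it, also at passage 3 to 6. EPC_Late is the high passage line, passage 16 to 20, and the study describes it as grown on from EPC_acLDL (its culture section allows still later passages), so the lines are successive stages of 1 culture history. The number of mice behind them is not given in the sources used here, nor do the labels say whether the 2 arrays of a line are separate cultures, and the study mentions both independent experiments and duplicate runs. P-values thus measure only the spread between these arrays, which may be technical. In bulk RNA of this kind fewer cells of a type and less RNA per cell cannot be told apart.

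Array medians lay between 304.6 and 358.7 intensity units, and 2177 to 2365 probes per array were above background, meaning a detection p-value below 0.05 against the negative control probes. Signals were background corrected and quantile normalized to a log2 scale, and 2333 probes that cleared background on each array of some line were tested with limma. Replicate arrays correlated at 0.989 to 0.992 across these probes, which are not independent of each other. Over the whole array 88.8% of probes were above background on no array. Of 18 endothelial genes only Kdr, the VEGF receptor used in the sort, was above background, on all 6 arrays, and the other 17, Pecam1, Cdh5, Tek and Vwf among them, were not above background on any array. All signs below follow the labels of the arrays. By these labels the Sox2 signal was higher than in EPC by a log2 difference of 2.01 in EPC_acLDL and of 2.67 in EPC_Late. This is the opposite of the direction that the study gives for Sox2, and for Igsf4a below, which bears on how every difference to EPC is read.

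Of the 8 member probes, 3 were above background on all 6 arrays (Fst, Bmp4 and Acvr1), and 5 on none (Fstl1, Inhba, Acvr2a, Smad2 and Id1). Levels can therefore be compared for 3 of the 10 genes, and tests are given for Bmp4 and Acvr1. Fst was lower in EPC_acLDL and in EPC_Late than in EPC. The mean signal of Bmp4 was above that of EPC in both by a smaller amount, which in EPC_Late did not pass the threshold of an adjusted p below 0.05 in limma, and Acvr1 passed it in neither comparison of EPC_Late.

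**Figure D1:**
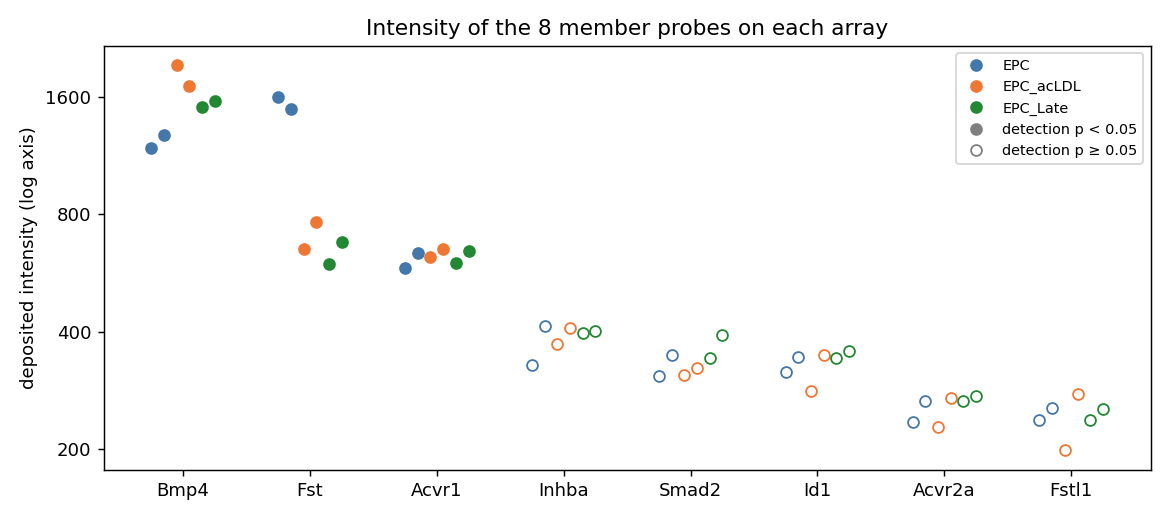
Deposited intensity (log axis) of each of the 8 member probes on each array, coloured by line, with replicate 1 to the left of replicate 2. Filled points are above background (detection p below 0.05) and open points are not. Fst, Bmp4 and Acvr1 are filled on all 6 arrays and the other 5 probes are open on all 6.

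Fst encodes follistatin itself and was read by probe ILMN_1228958. Its intensity was 1593.6 and 1486.8 for EPC, 651.0 and 762.3 for EPC_acLDL, 595.7 and 678.2 for EPC_Late. Each EPC array was thus brighter than every array of the other lines, and the EPC_acLDL and EPC_Late arrays overlapped. The detection p-value was at most 0.00251 on any array, so the low level was still measured above background. After normalization the log2 signal averaged 10.34 ± 0.07 (SD, n = 2) for EPC, 8.39 ± 0.23 (SD, n = 2) for EPC_acLDL, and stood at 8.16 ± 0.27 (SD, n = 2) for EPC_Late.

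The normalized Fst signal was 3.87-fold lower in EPC_acLDL than in EPC (log2 difference -1.95, SE 0.18). This is the contrast for which the gene was picked, and there Fst had the second lowest log2 difference of the 2333 probes tested, or the second highest with the sign turned. Against the same EPC arrays it was 4.56-fold lower in EPC_Late (log2 difference -2.19, SE 0.18), with 1.20% of probes showing a difference of larger size in either direction. The 2 comparisons share the EPC arrays and are not separate evidence. The later stage stood -0.23 (SE 0.18) from EPC_acLDL on the log2 scale, and 48.8% of probes had a larger one. By the labels the mean level was highest in EPC, and with the sign turned it would be lowest there. EPC_acLDL and EPC_Late had no order beyond their spread. The size of the drop depended on the background correction. Without any correction the log2 differences to EPC were -1.27 and -1.38, and with each array left out in turn they ranged from -2.11 to -1.78 for EPC_acLDL and from -2.38 to -2.01 for EPC_Late.

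The other follistatin genes gave little. Fstl1 encodes a secreted follistatin-like glycoprotein, and its probe ILMN_2734683 had intensities between 198.4 and 276.4 with detection p-values of 0.956 to 1. It lay below nearly all negative control probes on every array, so no level or difference can be given for it.

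Among the ligands Bmp4 was measured on every array. It encodes bone morphogenetic protein 4, a ligand for type I receptors of the BMP group. The intensity of probe ILMN_1215252 was 1181.0 and 1278.6 for EPC, 1928.0 and 1706.2 for EPC_acLDL, 1506.3 and 1564.0 for EPC_Late, with a detection p-value of 0 throughout. By the labels the EPC arrays were lowest in intensity, the EPC_acLDL arrays highest, and no arrays of different lines overlapped. With the sign of the differences to EPC turned, EPC would be highest. The normalized log2 signal averaged 9.89 ± 0.11 (SD, n = 2) for EPC, 10.36 ± 0.11 (SD, n = 2) for EPC_acLDL, and stood at 10.27 ± 0.03 (SD, n = 2) for EPC_Late, and on this scale the arrays of the last 2 lines overlapped.

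On the normalized scale Bmp4 was 1.39-fold higher in EPC_acLDL than in EPC (log2 difference 0.47, SE 0.12). The EPC_Late arrays exceeded EPC 1.31-fold (log2 difference 0.39, SE 0.12, 95% confidence interval 0.09 to 0.69), which did not pass after adjustment over all probes (unadjusted p = 0.019 and adjusted p = 0.071 from limma). Over the 14 alternative settings this adjusted p ranged from 0.0095 to 0.24 and passed the threshold in 4 of them. The difference was positive in each. From EPC_acLDL to EPC_Late the log2 signal of Bmp4 differed by -0.09 (SE 0.12, 95% confidence interval -0.38 to 0.21, adjusted p = 0.71 from limma). Without normalization between arrays the value for EPC_acLDL against EPC was 0.72 and that for EPC_Late against EPC_acLDL was -0.33, where the medians of all probes tested were themselves 0.25 and -0.16.

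**Figure D2:**
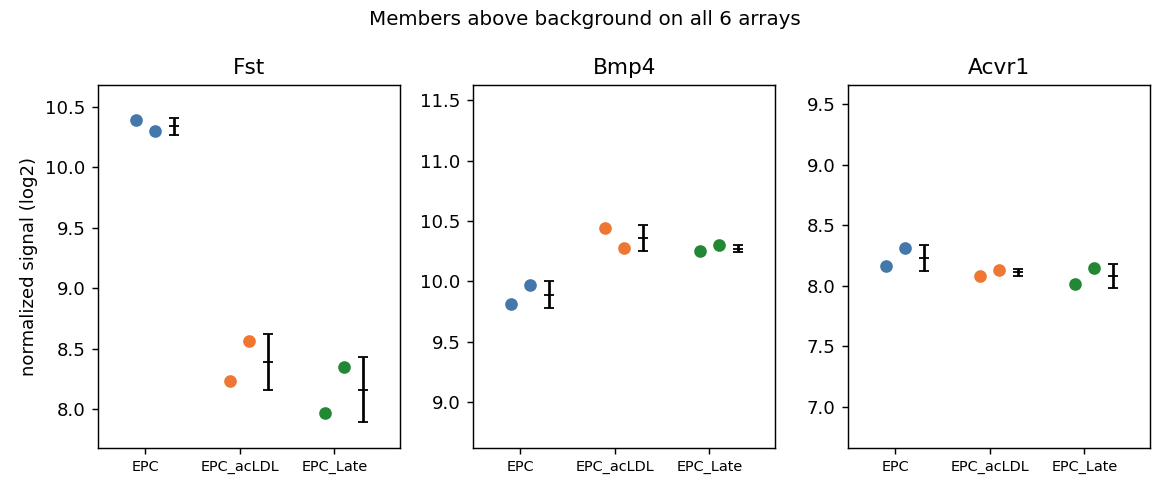
Normalized log2 signal of Fst, Bmp4 and Acvr1, with coloured points for the 2 arrays of each line and, beside them, the mean with its SD (n = 2). Each panel spans the same range of log2 units around its own centre. The Fst points of EPC, at 10.39 and 10.30, stand clear of those of the other lines, between 7.97 and 8.56.

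The activin subunit gene Inhba, which encodes the beta A chain of activin A, was not above background. Probe ILMN_2868220 came nearest to it of the 5 undetected members, with intensities of 328.0 and 412.5 for EPC, 371.9 and 409.2 for EPC_acLDL, 397.3 and 400.7 for EPC_Late. Its detection p-values ran from 0.0714, on an EPC array, to 0.283, on the other EPC array. The arrays of the 3 lines overlapped, and the data set no level for the ligand that follistatin binds best.

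Of the receptors, Acvr1 encodes a type I receptor for BMPs and activin-related ligands. Probe ILMN_2660103 had intensities of 582.6 and 635.5 for EPC, 621.7 and 652.1 for EPC_acLDL, 599.9 and 644.1 for EPC_Late. In intensity the 3 lines overlapped. The normalized log2 signal averaged 8.23 ± 0.11 (SD, n = 2) for EPC, 8.11 ± 0.03 (SD, n = 2) for EPC_acLDL, and stood at 8.08 ± 0.10 (SD, n = 2) for EPC_Late.

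The log2 difference of Acvr1 was -0.13 (SE 0.12) between EPC_acLDL and EPC, and it turned to 0.12 without normalization between arrays. It was -0.16 (SE 0.12, 95% confidence interval -0.45 to 0.14, adjusted p = 0.44 from limma) between EPC_Late and EPC. From EPC_acLDL to EPC_Late it was -0.03 (SE 0.12, 95% confidence interval -0.32 to 0.26, adjusted p = 0.90 from limma). No difference was thus detectable for this receptor in the 2 comparisons of EPC_Late, and changes within these intervals could not be seen. The type II receptor gene Acvr2a had intensities between 228.1 and 274.2 on probe ILMN_2617775, with detection p-values of 0.970 to 0.987, and was not measured.

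Downstream, Smad2 encodes one of the Smads that activin receptors phosphorylate, and Id1 is a target gene of BMP signalling that encodes an inhibitor of DNA binding. Neither was above background on any array. The Smad2 probe ILMN_1228414 had intensities between 308.7 and 392.9 with detection p-values of 0.227 to 0.699. The Id1 probe ILMN_2672190 had intensities between 281.9 and 356.5 with detection p-values of 0.417 to 0.699. For neither gene does a value above background stand for the intracellular side of the pathway in these lines.

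Of the 3 members tested, 1 was called in EPC_acLDL relative to EPC, where 3.30% of all probes were called (1.93% higher, 1.37% lower), and 1 in EPC_Late relative to EPC, where 23.9% were (10.9% higher, 13.0% lower). That member was Fst in both, and since it was picked on these arrays nothing is read from the counts. In EPC_Late relative to EPC_acLDL 0 of 3 were called by limma, where 20.9% of all probes were called (9.34% higher, 11.5% lower). On the normalized scale all 3 members had arrays that lay apart from EPC in both comparisons with it, as did 50.8% of all probes for EPC_acLDL and 58.0% for EPC_Late. Relative to EPC_acLDL 0 of 3 lay apart in EPC_Late, beside 58.6% of all probes. Leaving out EPC replicate 1 or EPC_acLDL replicate 1 brought the first count to 0.

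The rest of the pathway was read from a list of 91 other genes of the activin, BMP and TGF-beta branches (ligands, receptors, antagonists, Smads with their regulators, and target genes). Of these, 84 had a probe, 114 probes in all. On no array was any probe above background for 70 of the 84 genes, and on all 6 arrays this was reached by 4 only, the target genes Junb and Klf10, the inhibitory Smad6, and Smurf1, a ubiquitin ligase that acts on Smads and receptors. The filter was passed by 11 probes of 11 genes, and 7 of them were not above background on every array, so that they passed through some lines only. Id2, Id3, Id4 and Ctgf, like Id1, were not above background on any array.

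Of the 11 probes, 0 passed the threshold between EPC_acLDL and EPC in limma, where 3.30% of all probes were called (4 of the 11 had an unadjusted p below 0.05, and 1 passed the methods' t-test unadjusted). The median log2 difference was 0.26, beside 0.01 over all probes tested. Between EPC_Late and EPC 2 passed, both higher in EPC_Late, where 10.9% of all probes were called higher, and the median was 0.29, beside 0.01. For EPC_Late relative to EPC_acLDL 2 passed, 1 in each direction, where 20.9% of all probes were called (9.34% higher, 11.5% lower). The median there was 0.09, beside 0.00. Because a probe that passed the filter through its brighter line had to differ, nothing is read from these counts and medians. Of the 4 genes above background on all 6 arrays, Klf10 alone was called. The comparisons with EPC share its arrays.

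**Figure D3:**
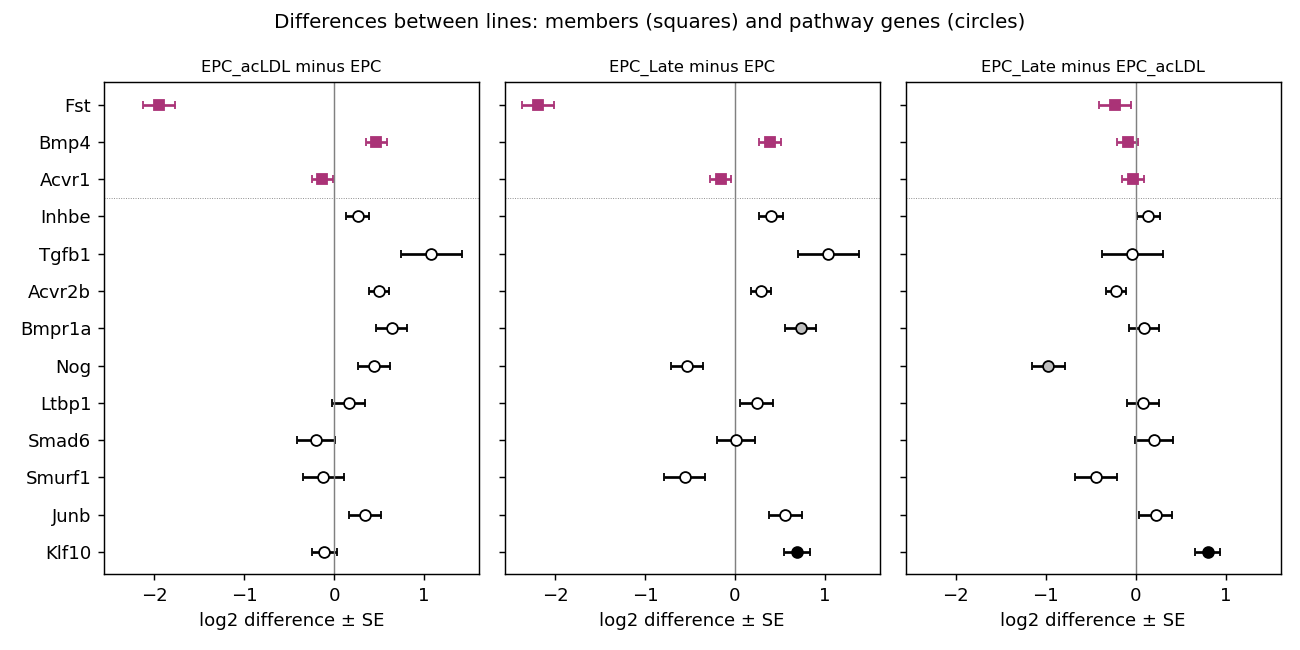
Log2 difference with its SE for each comparison, for the 3 members above background (squares) and 10 of the 11 tested genes of the pathway list (circles, filled where the adjusted p from limma was below 0.05, in grey where a line compared was not above background on either array). Squares are filled throughout and carry no test mark. Fst lies near -2 in the comparisons with EPC, the black circles are Klf10, and the grey ones, Bmpr1a and Nog, entered the test only through lines where they were brighter. Differences of genes not above background in a line (Bmpr1a and Inhbe in EPC, Nog in EPC_Late) are not exact.

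Bmpr1a encodes a type I receptor for BMPs. Probe ILMN_2653312 had intensities of 401.3 and 396.1 for EPC, 452.2 and 506.8 for EPC_acLDL, 495.4 and 499.2 for EPC_Late. It was above background on 0 of 2 EPC arrays and on both arrays of the other lines, and so passed the filter only through the lines where it was brighter. Its normalized signal was at least 1.26-fold higher in EPC_Late than in EPC, while without background correction the log2 difference was 0.23, which is not exact since the probe was not above background in EPC. The adjusted p of 0.026 from limma is no support, since the filter chose the probe by its bright lines, and with all 25697 probes tested and no filter it was 0.051. For this bound the dimmer line was given, per array, either the probe's own signal or the lowest signal above background, whichever was higher. The call was also lost in 5 of the 6 fits without 1 array, where the adjusted p from limma ran up to 0.12.

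Klf10, an early target gene of TGF-beta signalling that encodes a zinc finger protein, was above background on all 6 arrays. The intensity of probe ILMN_2648189 was 446.3 and 497.3 for EPC, 484.0 and 497.5 for EPC_acLDL, 588.6 and 616.5 for EPC_Late. The EPC_Late arrays were brighter than the 4 others. Klf10 rose in EPC_Late 1.61-fold against EPC (0.69 on the log2 scale, SE 0.14, limma adjusted p = 0.014), and 1.74-fold against EPC_acLDL (0.80 on the log2 scale, SE 0.14, limma adjusted p = 0.010). Without background correction these log2 differences were 0.25 and 0.29. The first call was lost without EPC replicate 1 or either EPC_Late array (adjusted p = 0.068, 0.058 and 0.077 from limma), and the second without EPC_acLDL replicate 2 or EPC_Late replicate 2 (adjusted p = 0.077 and 0.058 from limma).

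Nog encodes noggin, a secreted antagonist that binds BMPs. Probe ILMN_2746870 had intensities of 403.0 and 447.4 for EPC, 453.9 and 535.2 for EPC_acLDL, 386.6 and 428.9 for EPC_Late. It was above background on 1 of 2 EPC arrays, on both EPC_acLDL arrays and on neither EPC_Late array, and so passed the filter only through EPC_acLDL. Its normalized signal was at least 1.33-fold lower in EPC_Late than in EPC_acLDL. The adjusted p of 0.012 from limma after that filter is no support either. With all 25697 probes tested and no filter it was 0.016, and the call after the filter was lost without EPC_acLDL replicate 2 or EPC_Late replicate 1 (adjusted p = 0.073 from limma in each). Without background correction the log2 difference was -0.31, which is not exact since the probe was not above background in EPC_Late.

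The 8 other tested genes of the list passed in no comparison. The receptor gene Acvr2b had intensities of 416.2 and 452.1 on the EPC arrays, 1 of them above background, against 503.9 and 531.2 on the EPC_acLDL arrays, so no size is given. The same held for Tgfb1, a ligand of the TGF-beta branch. Its EPC arrays lay apart at 433.4 and 382.6, only the first above background. Among the others were Inhbe, Ltbp1, Smad6, Smurf1 and Junb.

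Across the 6 normalized arrays the pattern of Fst was set beside that of the other 2332 probes, as a description over 3 lines of 2 arrays and with no test. The 5 probes with the highest Pearson correlation to Fst were those of Hist1h2bf (0.980), a histone gene, Ehbp1l1 (0.974), Dbn1 (0.974), which encodes the actin-binding protein drebrin, 2310066E14Rik (0.971) and Ppp2r2b (0.967), a regulatory subunit gene of protein phosphatase 2A. By the labels each had its highest signals on the EPC arrays. For the 4 besides Dbn1 the log2 differences between EPC_acLDL and EPC lay between -1.28 and -0.55. The Dbn1 probe was above background on 3 of 6 arrays and on neither EPC_acLDL array, so its difference there is not exact.

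The 5 most opposite probes were those of Hnrnpk (-0.994), which encodes an RNA-binding protein, Igsf4a (-0.991), an adhesion molecule gene, Ivns1abp (-0.987), Rnf167 (-0.986) and Golga7 (-0.984). By the labels they were lowest on the EPC arrays. Igsf4a had the largest range, with a log2 difference of 2.69 between EPC_acLDL and EPC and of 2.90 between EPC_Late and EPC. As with Sox2, the study gives the opposite direction for Igsf4a. Bmp4 stood at -0.927 on the same measure and Acvr1 at 0.785. All arrays come from 1 chip and the points share the EPC arrays, so that any probe that differs between EPC and the other lines scores high.

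**Figure D4:**
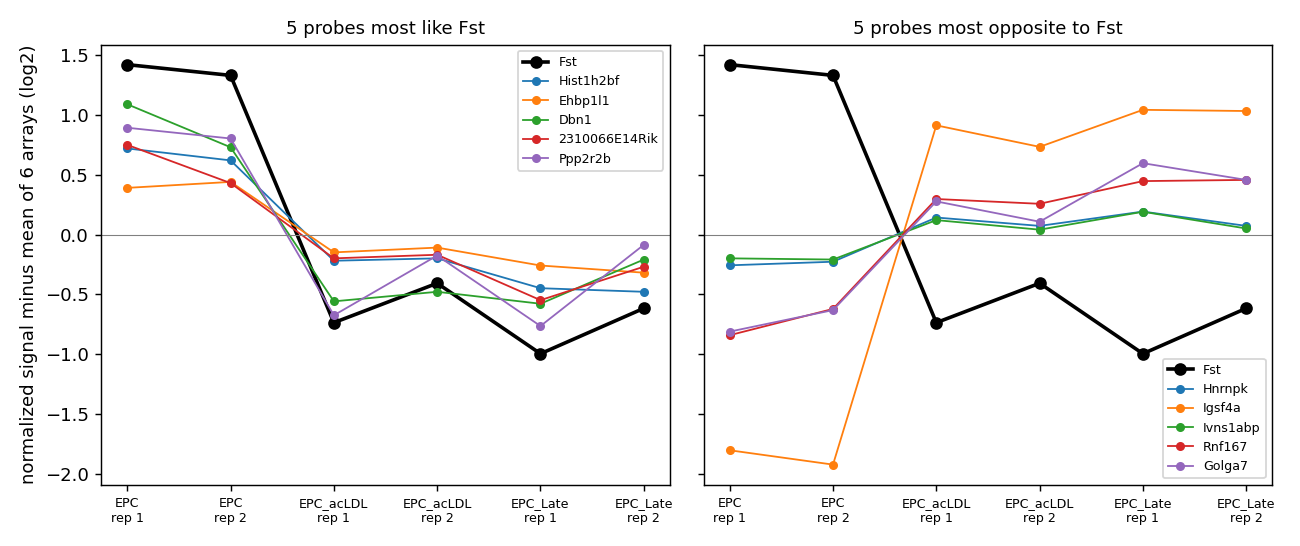
Normalized log2 signal minus its mean over the 6 arrays for Fst (black) and, on the left, the 5 probes most like it and, on the right, the 5 most opposite to it. On both sides the EPC arrays stand apart from the other 4, and Fst and Igsf4a span the widest range.

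Markers of other cell types were read on the same arrays. Of 8 smooth muscle or pericyte genes 3 were above background on all 6 arrays (Acta2, by 1 of its probes, Cspg4 and Des) and the other 5, Tagln, Cnn1 and Myh11 among them, on none. Only 3 of the 11 probes of this list were tested, and 0 were called in any comparison. Over all probes 3.30% were called for EPC_acLDL against EPC, 23.9% for EPC_Late against EPC and 20.9% for EPC_Late against EPC_acLDL. The summed intensity over these 11 probes was 4198 to 4302 in EPC, 4174 to 4721 in EPC_acLDL and 4529 to 4752 in EPC_Late. This sum and those below are of deposited intensities, which are not normalized and include background. Array medians were 311 and 342.4 for EPC, 304.6 and 345.2 for EPC_acLDL, and 336.6 and 358.7 for EPC_Late. No difference between lines is therefore read from the sums. Of 9 fibroblast genes Col1a2 alone was above background, and in EPC only narrowly, at detection p-values of 0.0439 and 0.0426. It was 0.43 higher on the log2 scale in EPC_Late than in EPC (adjusted p = 0.047 from limma), where 10.9% of all probes were called higher. The sum over the 13 fibroblast probes was 4161 to 4505 in EPC, 4115 to 4684 in EPC_acLDL and 4554 to 4904 in EPC_Late. Of 10 blood cell genes with a probe Csf1r and Coro1a were above background and Ptprc, which encodes CD45, was not. Coro1a was called lower in EPC_Late than in EPC (adjusted p = 0.015 from limma), where 13.0% of all probes were called lower. That call rests on 1 probe, above background on 1 of 2 EPC_Late arrays and on all arrays of the other lines, while its 3 other probes were above background on none. The sum over the 17 blood cell probes was 5789 to 6277 in EPC, 5564 to 6352 in EPC_acLDL and 6066 to 6437 in EPC_Late. Of 11 epithelial genes with a probe, Cdh1 and Cldn7 were above background on all 6 arrays. The other 9, Krt8, Krt18 and Nkx2-1 among them, were on none. Of 2 mesothelial genes with a probe, Upk3b was above background, by 1 of its probes, and Msln was not. None of these was called. The sum over the 12 epithelial probes was 4169 to 4544 in EPC, 4311 to 4588 in EPC_acLDL and 4769 to 4910 in EPC_Late. Of the 85 marker probes of all lists, the endothelial list included, 10 were tested. None of them was called between EPC_acLDL and EPC, where 3.30% of all probes were called. The part of these markers in the Fst and Klf10 values was not tested.

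**Figure D5:**
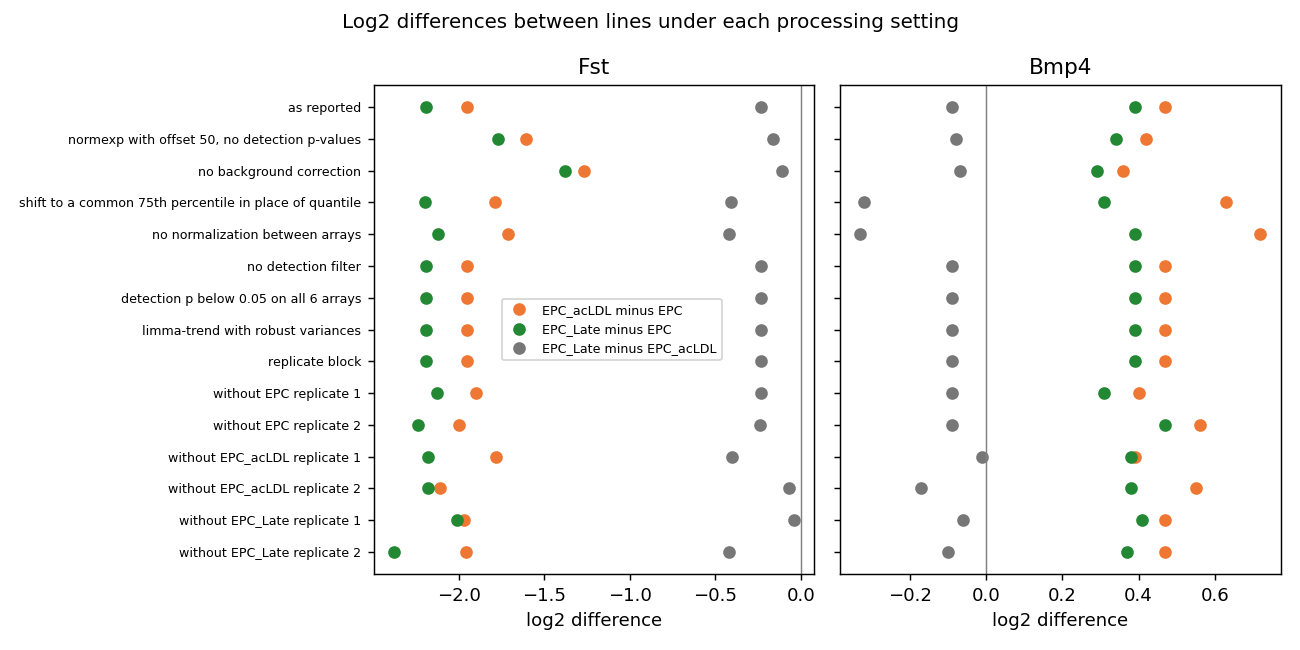
Log2 difference of Fst and of Bmp4 for each comparison (colour) under the reported processing and 14 alternatives, 1 per line. The Fst differences to EPC reach at most -1.27 and -1.38, without background correction, and those of Bmp4 are above 0 throughout.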

How the data were processed

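Per the study's methods the authors hybridized RNA to MouseRef-8 v2.0 arrays, averaged bead signals in BeadStudio v3.1 (local background corrected, not normalized) and deposited 1 intensity and 1 detection p-value per probe and array. Here the deposited intensities went through limma 3.58.1 under R 4.3.3: neqc (background from the detection p-values, offset 16, quantile normalization, log2), a filter that kept probes with detection p-values below 0.05 on each array of some line, and lmFit with eBayes on the 6 arrays together, with no covariate and with Benjamini-Hochberg adjustment over 2333 probes. Members and lists were chosen with earlier results of these data known. Named were all member probes, the pathway probes called in any comparison, marker genes above background, and the 5 probes most like and most opposite to Fst; Acvr2b and Tgfb1 were named after their values were seen. Some genes of the pathway list are not reported here by name. Genes carry the names of the array design. The steps were tested on simulated intensities. The number of arrays limits the precision. Alternatives were other background corrections, scalings, filters, a variance trend, a replicate block, leaving out single arrays, and the methods' t-test.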

Additional observations from a re-analysis of the deposited data

How the results depend on the processing

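Fst and Bmp4 kept the sign of every difference in all 14 settings with a fold change. Signs that turned were of differences near 0. Acvr1 between EPC_acLDL and EPC went from -0.13 to 0.03 with a shift to the 75th percentile and 0.12 without normalization, and between EPC_Late and EPC_acLDL from -0.03 to 0.04 without EPC_Late replicate 1 (-0.10 to 0.04 with arrays left out). Klf10 between EPC_acLDL and EPC went from -0.11 to 0.06, 0.14 and, without EPC replicate 2, 0.02 (-0.24 to 0.02 with arrays left out). Bmpr1a between EPC_Late and EPC_acLDL went from 0.09 to -0.04 and -0.05 with the shift and without normalization. Under these 2 scalings the median of all probes was 0.16 and 0.25 for EPC_acLDL relative to EPC (0.01 as reported) and -0.15 and -0.16 for EPC_Late relative to EPC_acLDL (0.00 as reported). There, calls higher in the line named first went from 45 of 77 to 114 of 138 and 261 of 285, and from 218 of 487 to 131 of 502 and 129 of 527. Other causes were not tested.

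Between EPC_acLDL and EPC, 77 probes were called: 138 with the shift, 164 at the offset of 50, 273 without background correction, 285 without normalization, 50 without the filter, 281 with limma-trend, and 354 and 0 with the methods' t-test before and after adjustment. Leaving out arrays gave 9 to 36. The 1 member called became 2 with the offset of 50, without background correction, without normalization and with limma-trend, 0 with the adjusted t-test, and 0 to 1 with arrays left out. The 0 pathway probes became 1 with the shift, 4 without normalization, 1 with limma-trend and 1 with the unadjusted t-test, and stayed 0 with arrays left out.

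Between EPC_Late and EPC, 557 probes were called, 0 with the adjusted t-test and 370 to 468 with arrays left out. The 1 member became 2 with the offset of 50, without background correction, with detection on all 6 arrays, with limma-trend and with the unadjusted t-test, 0 with the adjusted one, and stayed 1 with arrays left out. The 2 pathway probes became 4 without normalization and with limma-trend, 1 with detection on all 6 arrays, 0 with the adjusted t-test, and 0 to 3 with arrays left out. They were 1 without EPC replicate 2 or either EPC_acLDL array and 0 without either EPC_Late array.

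Between EPC_Late and EPC_acLDL, 487 probes were called, 0 with the adjusted t-test and 203 to 460 with arrays left out, with 203 and 228 without EPC_acLDL replicate 1 and 2. The 2 pathway probes became 1 with detection on all 6 arrays, 0 with the adjusted t-test and 0 to 2 with arrays left out.

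Same-numbered arrays deviated together at correlations of 0.08, 0.02 and 0.03, and no label pairs them. Under the replicate block the calls numbered 43, 547 and 458, with 1, 1 and 0 members and 0, 3 and 2 pathway probes. Of those 3, 2 were higher and 1 lower in EPC_Late than in EPC. Fits that leave a line 1 array take its spread from the other lines. Dim signal limits what can be tested, since 88.8% of all probes were above background on no array.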
